A study of Mus musculus with 24 samples.

Results

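The lipoxygenase and leukotriene genes were measured in 24 carotid arteries of mice as 8 genes: Alox5, Alox5ap, Ltc4s, Lta4h, Alox15, Alox12, Alox8 and Aloxe3. They were chosen by name among the 55421 genes of each deposited table, through the symbols that the GENCODE M21 annotation gives to their identifiers. Alox15 was brought forward by its low expression with estetrol against vehicle in these same libraries, so its values are given as a description. The counts of tested genes below cover the other 7, except where Alox15 is stated to be included. The other genes were added as relatives of the same pathway, and all 8 passed the filter on low counts in both models fitted.

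RNA was sequenced from uninjured carotid arteries of C57BL/6 female mice aged 9 weeks, with 6 libraries in each of 4 groups. Ovariectomized mice received placebo pellets (vehicle), 17β-estradiol (E2, the main ovarian estrogen) or estetrol (E4, an estrogen of the fetal liver), and a last group received tamoxifen, a selective modulator of the estrogen receptor. The series describes 3 weeks of treatment, whereas the methods of the study describe a shorter one. The E4 libraries carry a placebo entry in their treatment field and were assigned from their titles, and the labels do not state that tamoxifen-treated mice were ovariectomized. Each library carries its own number in its title, written here after the letter C, and the numbers fall in 2 series that no source calls batches. Nothing states that each library came from a separate animal beyond these numbers, so the tests measure the spread between libraries.

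Library totals lay between 24647246 and 64221401 counts, with a median of 45156106. Values are given as CPM, the counts of a gene divided by the scaled library total and multiplied by a constant. Vehicle C5 and tamoxifen C35 stood apart from their groups. Their summed sympathetic ganglion markers were at 28.7 and 199 CPM, against group medians of 4548 and 5782. Vehicle C5 also had the highest summed macrophage markers of its group (1150 CPM, median 711), and the main results below that turned on these libraries are also given without them. Smooth muscle and endothelial markers, the label's own cell types, were detected in every library, at summed values of at least 2327 and 469 CPM. In whole arteries, fewer cells of a type and less RNA per cell cannot be told apart.

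Lipoxygenases insert oxygen into polyunsaturated fatty acids. Alox5 encodes 5-lipoxygenase, which makes the unstable leukotriene A4 from arachidonic acid with the help of FLAP, the membrane protein encoded by Alox5ap. Ltc4s then joins leukotriene A4 to glutathione, which opens the cysteinyl leukotriene branch, and Lta4h hydrolyses it to leukotriene B4, an attractant of neutrophils. Leukotriene synthesis is known mainly from cells of myeloid origin, such as macrophages, mast cells and granulocytes, and the cysteinyl leukotrienes act on vessel tone and permeability. Alox15 encodes the 12/15-lipoxygenase of mouse eosinophils and certain macrophages, Alox12 the platelet-type 12-lipoxygenase, and Alox8 and Aloxe3 are best known from skin.

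Per length of annotated exons, Lta4h had the highest level over all groups, with a median of 5.55 CPM per kb over the 24 libraries (range 4.68 to 6.09). Alox5ap followed at 5.03 (3.02 to 11.4), then Ltc4s at 3.73 (2.58 to 8.92) and Alox5 at 1.35 (0.875 to 2.75). The order of the first 3 depended on the group. With E2, Alox5ap was at a median of 10.01 CPM per kb (7.75 to 11.4) and Ltc4s at 7.84 (7.28 to 8.92), and every library of both lay above every Lta4h library (5.29 to 5.92). With tamoxifen, all Ltc4s libraries (2.58 to 3.59 CPM per kb) lay below all Lta4h libraries (5.20 to 6.09), whereas with vehicle and E4 the ranges of the 3 genes overlapped. The remaining lipoxygenases were far lower on this scale, at 0.471 for Alox12, 0.243 for Alox15, 0.0903 for Aloxe3 and 0.0421 for Alox8. The last pair was close to the limit of detection, with 8 to 45 counts per library for Aloxe3 and 0 to 20 counts for Alox8.

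Alox5 (ENSMUSG00000025701) lies on the minus strand of chromosome 6, at 116410077 to 116461178 in GRCm38. Ltc4s (ENSMUSG00000020377) lies on the minus strand of chromosome 11, at 50236461 to 50238616. Lta4h (ENSMUSG00000015889) lies on the plus strand of chromosome 10, at 93453411 to 93484875. The 250 bases before the RefSeq start of these 3 genes are shown because Alox5 and Ltc4s moved together below while Lta4h did not. The RefSeq sequences of build GRCm38.p6 run 5′ to 3′ along the gene's strand, and capitals mark the matches to the motifs searched.
Alox5, chr6:116461179-116461428, minus strand: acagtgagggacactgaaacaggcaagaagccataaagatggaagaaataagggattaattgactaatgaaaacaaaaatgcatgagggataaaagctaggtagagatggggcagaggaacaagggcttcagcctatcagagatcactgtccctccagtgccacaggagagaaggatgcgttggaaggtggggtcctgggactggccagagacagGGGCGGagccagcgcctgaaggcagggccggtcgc
Ltc4s, chr11:50238533-50238782, minus strand: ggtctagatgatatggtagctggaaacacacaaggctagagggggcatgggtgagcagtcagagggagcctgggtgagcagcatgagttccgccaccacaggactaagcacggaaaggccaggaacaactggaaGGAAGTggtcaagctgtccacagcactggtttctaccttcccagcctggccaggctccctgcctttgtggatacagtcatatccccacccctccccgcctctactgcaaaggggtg
Lta4h, chr10:93453146-93453395, plus strand: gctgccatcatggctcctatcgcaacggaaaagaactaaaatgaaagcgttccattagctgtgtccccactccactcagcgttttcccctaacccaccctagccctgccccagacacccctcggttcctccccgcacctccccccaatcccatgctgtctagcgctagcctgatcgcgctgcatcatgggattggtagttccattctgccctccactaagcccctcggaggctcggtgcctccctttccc
The motifs, searched on both strands, were the GC box GGGCGG, the ETS core GGAAGT, the TATA box TATAAA and the estrogen response element GGTCANNNTGACC, none of which overlapped another in these windows. Alox5 held a GC box starting 35 bases before its start, and Ltc4s an ETS core starting 116 bases before. No match to the 4 motifs was found in the Lta4h window. These motifs occur in 32.7%, 19.7%, 12.4% and 0.0639% of 32851 RefSeq promoters of this length, so the matches describe the letters alone. Among the members, 5 had a promoter in the table, and none of these windows held the estrogen response element or the TATA box.

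The E2-treated arteries had more transcripts of the 5-lipoxygenase, FLAP and leukotriene C4 synthase genes than those of the other 3 groups, as the plot of each library shows. Alox5 was at 4.39, 5.47 and 7.88 CPM in vehicle-treated arteries (lowest, median and highest of 6), and at 9.72, 10.4 and 11.3 CPM with E2. With E4 the corresponding values were 3.59, 4.92 and 7.93 CPM, and with tamoxifen 4.38, 4.80 and 6.24 CPM. All 6 E2 libraries were therefore above all 18 libraries of the other groups, and the other 3 groups overlapped each other. Alox5ap (ENSMUSG00000060063; chromosome 5, 149264767 to 149288153, plus strand) was at 6.09, 6.88 and 10.4 CPM with vehicle and 11.012, 14.2 and 16.2 CPM with E2. It was at 4.28, 6.85 and 8.27 CPM with E4, and at 6.09, 6.77 and 8.72 CPM with tamoxifen. The E2 libraries again lay above every other library, the nearest being vehicle C5.

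**Figure D1:**
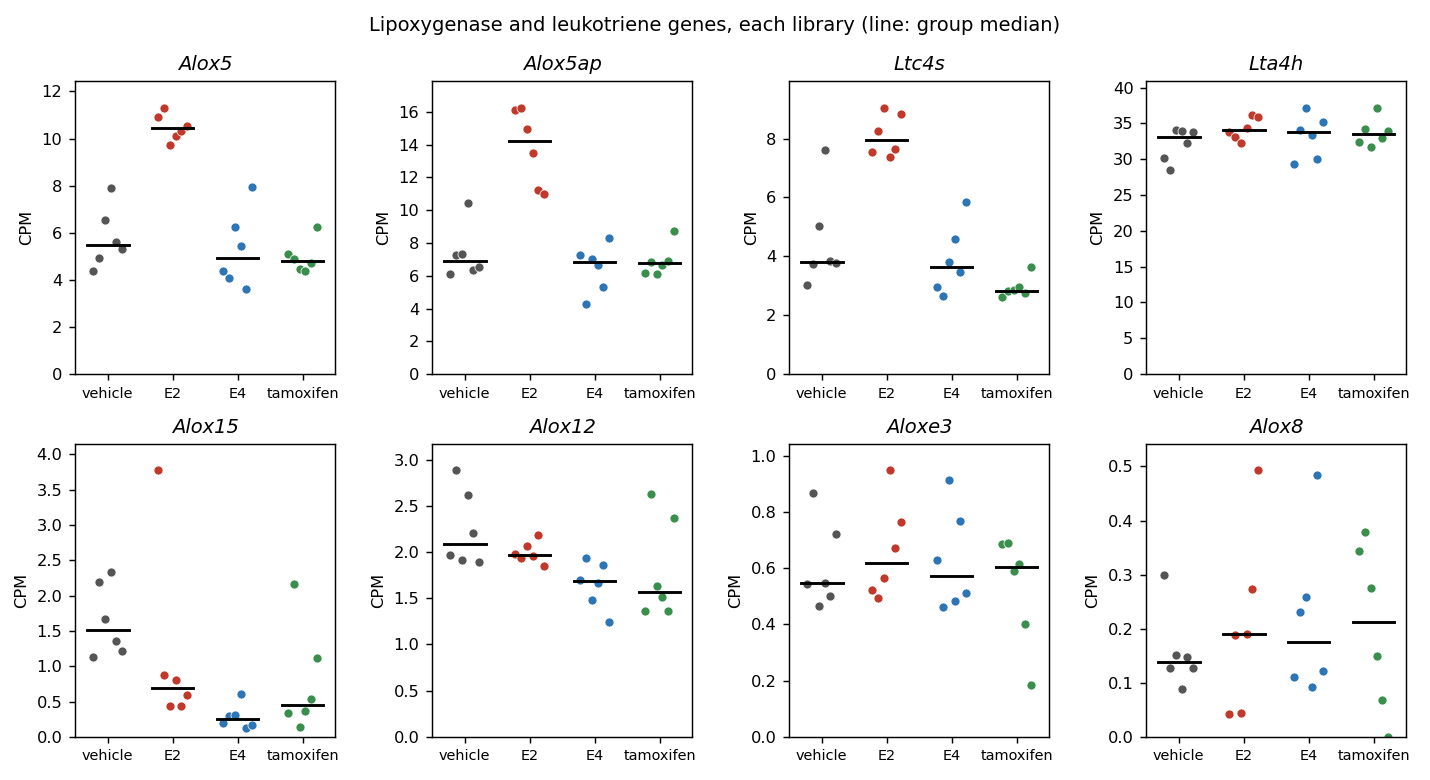
Expression of the 8 genes in CPM (vertical axis, linear from 0) in each of the 6 libraries per group (horizontal axis), with the group median as a line. Alox5, Alox5ap and Ltc4s are highest with E2, Lta4h is level at about 33 CPM, and single high libraries of Alox15 stand out with E2 (3.77 CPM) and tamoxifen (2.16 CPM).

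Ltc4s was at 3.04, 3.82 and 7.62 CPM in vehicle-treated arteries and at 7.38, 7.95 and 9.05 CPM with E2. With E4 it was at 2.65, 3.63 and 5.84 CPM, and with tamoxifen at 2.61, 2.83 and 3.64 CPM. The overlap between vehicle and E2 came from vehicle C5 alone, as the next vehicle library was at 5.02 CPM. The tamoxifen median was the lowest of the 4. Lta4h, by contrast, was at 28.6, 33.1 and 34.1 CPM with vehicle, 32.3, 34.1 and 36.1 CPM with E2, 29.3, 33.8 and 37.1 CPM with E4, and 31.7, 33.5 and 37.2 CPM with tamoxifen. Its 4 groups overlapped throughout.

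E2 against vehicle asked what the reference estrogen does to the artery. Alox5 rose with E2, with a log2 fold change of 0.86 (95% interval 0.50 to 1.21) and an adjusted p of 0.00497 (edgeR, quasi-likelihood F-test, Benjamini-Hochberg correction over 24669 genes, n = 6 per group). Alox5ap rose by 0.92 on the log2 scale (0.57 to 1.26), with an adjusted p of 0.00192 in the same edgeR test. Ltc4s rose by 0.85 (0.41 to 1.28), with an adjusted p of 0.0231 in the same edgeR test. The 3 rises correspond to 1.81-, 1.89- and 1.80-fold higher expression. None of the 4 remaining tested genes passed, and the Lta4h difference was 0.09 (−0.05 to 0.23). In all, 3 of the 7 genes passed the adjusted p-value, all with higher expression, where 3.88% of all tested genes passed and 2.65% passed with higher expression. E2 values lay above all vehicle values for Alox5 and Alox5ap, as was the case for 2.01% of all tested genes. None of the 7 exceeded the additional threshold of the study, an absolute log2 fold change over 1, which 1.22% of all genes did. At an unadjusted p under 0.05 there were 3 genes with edgeR, and with DESeq2 0 genes exceeded both thresholds and 3 were under an unadjusted p of 0.05. Without vehicle C5 and tamoxifen C35, Alox5ap and Ltc4s exceeded the threshold as well, at 1.04 and 1.06, while Alox5 stood at 0.96. The Ltc4s result was the least firm. Its adjusted p by edgeR ranged from 0.0504 to 0.0586 when vehicle C2, C3, C24 or C25 or E2 C9 was left out, and was 0.0567 with upper-quartile scaling. Within the first number series the rises of Alox5, Alox5ap and Ltc4s were 0.84, 1.02 and 0.77, and within the second 0.90, 0.87 and 1.04. Of these values, the Ltc4s rise of the second series passed alone.

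E4 against E2 compared both estrogens directly, and the same 3 genes were lower with E4, each with no overlap between the groups. The log2 fold change was -0.99 (−1.35 to −0.63) for Alox5, with an adjusted p of 0.00187 (the quasi-likelihood F-test of edgeR, n = 6 per group). It was -1.09 (−1.44 to −0.75) for Alox5ap, with an adjusted p of 0.000754 in the same edgeR test. It was -1.06 (−1.501 to −0.62) for Ltc4s, with an adjusted p of 0.00456 in the same edgeR test. Ranges that do not overlap, with E4 lower, were seen in 4.18% of all tested genes. In all, 3 of the 7 genes passed the adjusted p-value with lower expression, where 10.9% of all genes passed it and 7.95% passed with lower expression. Alox5ap and Ltc4s exceeded the threshold of 1, which 2.26% of genes did, and Alox5 fell just short. Without E4 C19 neither exceeded it, with Alox5ap at -0.998 and Ltc4s at -0.97, and without E4 C16 1 of the 7 genes did. All 3 genes exceeded it without E2 C9, E4 C20 or E4 C39. Within the first series the differences of Alox5, Alox5ap and Ltc4s were -1.12, -1.35 and -1.40, and all 3 passed. Within the second they were -0.83, -0.79 and -0.74, and 0 of all genes tested in that series passed both thresholds with edgeR.

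Tamoxifen against E2, tested in a model of all 24 libraries, also gave lower expression of these genes with no overlap between the groups. The log2 fold change was -1.08 for Alox5 (adjusted p = 0.000117), -1.001 for Alox5ap (adjusted p = 0.000181) and -1.47 for Ltc4s (adjusted p = 2.76e-05), by the quasi-likelihood F-test of edgeR over 25056 genes. Their 95% intervals were −1.41 to −0.75, −1.32 to −0.68 and −1.87 to −1.07. All 3 exceeded the threshold of 1, as did 1.65% of all genes. The adjusted p-value alone was passed with lower expression by 4.48% of all genes, and in 3.11% all tamoxifen values lay below all E2 values. Alox5ap sat on the threshold, at -1.001. DESeq2 counted 2 genes rather than 3. Ltc4s passed within each number series (-1.60 and -1.33), whereas Alox5 and Alox5ap passed in the first alone (-1.16 and -1.31, against -0.999 and -0.66 in the second).

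Against vehicle, none of these 3 genes passed the adjusted p-value with E4 or with tamoxifen by edgeR. The log2 fold changes with E4 were -0.13 (−0.49 to 0.23) for Alox5, -0.18 (−0.52 to 0.17) for Alox5ap and -0.21 (−0.65 to 0.23) for Ltc4s. The intervals exclude a rise as large as the one estimated with E2. With tamoxifen they were -0.22 (−0.55 to 0.11), -0.08 (−0.40 to 0.23) and -0.62 (−1.01 to −0.22). The Ltc4s difference had an adjusted p of 0.074 by the quasi-likelihood F-test of edgeR, and this was 0.0487 without vehicle C2 and 0.179 without vehicle C5. With DESeq2 it passed, at an adjusted p of 0.0363. For tamoxifen against vehicle 0 of the 7 genes passed by edgeR, where 2.23% of all genes passed the adjusted p-value and 0.315% exceeded both thresholds, with 1 gene at an unadjusted p under 0.05 by edgeR and 1 by DESeq2. Tamoxifen and E4, compared directly, also gave 0 of 7 genes by both tools, against 0.343% of all genes at the adjusted p-value and 0.200% past both thresholds, with 1 gene at an unadjusted p under 0.05 by each tool. The Ltc4s interval there was −0.81 to −0.01. Across all 6 comparisons the Lta4h intervals stayed between −0.19 and 0.23.

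**Figure D2:**
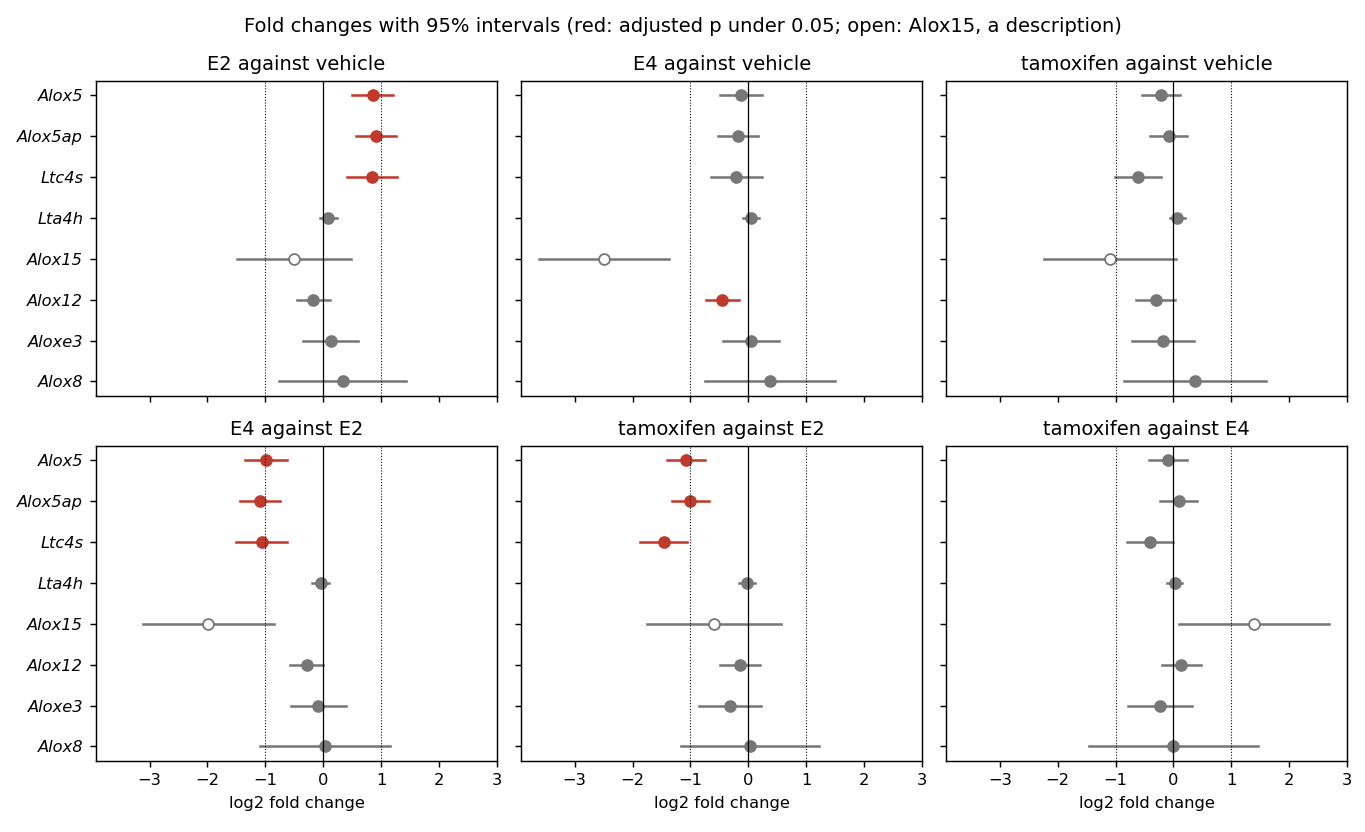
Log2 fold change (horizontal axis) of each gene (vertical axis) in the 6 comparisons, with 95% intervals as bars and dotted lines at −1 and 1. Red marks an adjusted p under 0.05, grey none, and open symbols Alox15, whose values are a description. The rises of Alox5, Alox5ap and Ltc4s with E2 (0.86, 0.92 and 0.85) use the same 6 E2 libraries as both comparisons that have E2 as the reference, so these are not independent.

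Alox15 (ENSMUSG00000018924; chromosome 11, 70344152 to 70352031, minus strand) was at 1.12, 1.51 and 2.33 CPM in vehicle-treated arteries, from 57 to 111 counts. With E4 it was at 0.121, 0.246 and 0.600 CPM, from 3 to 26 counts, so that all E4 libraries lay below all vehicle libraries. The log2 fold change was -2.49 (standard error 0.53), or 5.62-fold lower, the 21st lowest of 24669 genes, which is the value by which the gene was chosen. With any single library left out it was -2.86 to -2.36. Within the first number series the value was -2.76 and within the second -1.9996. In this comparison 2.50% of all genes exceeded both thresholds and in 4.15% all E4 values lay below all vehicle values. The adjusted p-value alone was passed by 21.7% of all genes.

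With E2, 5 libraries had 0.435 to 0.874 CPM of Alox15, below every vehicle library, whereas E2 C6 had 3.77 CPM, the highest value of the series. The log2 fold change against vehicle was -0.51 (−1.49 to 0.48) with this library and -1.39 without it. With tamoxifen the values were 0.138, 0.449 and 2.16 CPM, with C12 at the top and C35 next at 1.11 CPM, and 4 libraries below 0.6 CPM. The log2 fold change against vehicle was -1.09 (−2.24 to 0.05), and -1.73 without C12. E4 and E2 differed by -1.99, and by -1.11 without E2 C6. Tamoxifen differed by -0.59 from E2 and by 1.397 from E4. Comparisons that share the E4 or vehicle libraries are not independent of each other.

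Eosinophil markers moved with Alox15. Their summed level, over 6 genes, was 1.82 to 2.99 CPM with vehicle, 0.864 to 2.31 with E2, 0.351 to 1.06 with E4 and 0.447 to 1.78 with tamoxifen. The libraries highest in Alox15 with E2, E4 and tamoxifen, C6, C36 and C12, were also the highest in this sum and in that of 8 neutrophil markers. Among vehicle libraries, by contrast, C5 was highest in Alox15 and lowest in this sum (1.82 CPM), but highest in neutrophil markers (21.8 CPM, next 10.1). Neutrophil markers reached 63.6 CPM in E2 C6 against a group median of 11.6. Only 3 of the 6 eosinophil genes passed the filter on low counts, and all 3 were lower with E4 than with vehicle at an adjusted p under 0.05 by edgeR, with a median log2 fold change of -2.03 against -0.01 over all tested genes. Ccr3, the eotaxin receptor of eosinophils, was at 0.575 to 1.43 CPM with vehicle and 0.0243 to 0.302 with E4. Epx, the eosinophil peroxidase gene, had 0 to 5 counts in every library, and Ear6, an eosinophil ribonuclease gene, had 0 to 5 counts as well. Over the 24 libraries, the Pearson correlation of log2 CPM of Alox15 with this sum was 0.87, and 0.70 after removal of group means. It was 0.47 with neutrophil, 0.43 with macrophage, 0.67 with B cell and 0.59 with platelet markers, and 0.55, 0.49, 0.33 and 0.55 after removal of group means. With large peritoneal macrophage, alternative macrophage activation, mast cell and T cell markers it was 0.22, 0.33, 0.26 and 0.24. After removal of group means these were 0.31, 0.42, 0.06 and -0.14. B cell markers were lower with E4 than with vehicle in 9 of 10 genes as well. In that comparison 21.7% of all tested genes passed the adjusted p-value. The points share libraries of different depth, and the part of eosinophils in the Alox15 values was not tested.

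**Figure D3:**
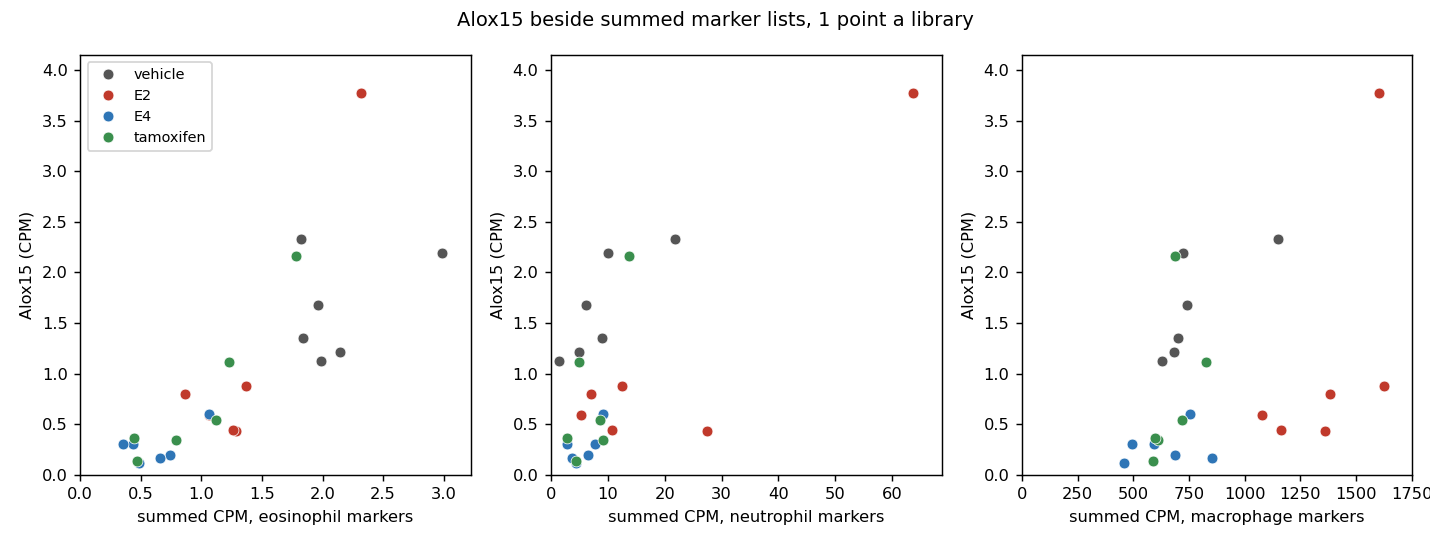
Alox15 in CPM (vertical axes, linear from 0) against the summed CPM of eosinophil, neutrophil and macrophage markers (horizontal axes), with 1 point a library and colors for the 4 groups. Vehicle libraries lie above 1.8 CPM of eosinophil markers and E4 libraries below 1.1, and E2 C6 is the single point at 3.77 CPM.

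Alox12 (ENSMUSG00000000320), the neighbor of Alox15 at 70241457 to 70255353 on the minus strand of chromosome 11, differed less. It was at 1.89, 2.09 and 2.88 CPM with vehicle and at 1.24, 1.68 and 1.93 CPM with E4, and the groups overlapped. Its log2 fold change of -0.45 (−0.73 to −0.16) had an adjusted p of 0.0253 (the quasi-likelihood F-test of edgeR, n = 6 per group). This was 1 of 7 genes past the adjusted p-value, a share near or below that of all genes. The adjusted p by edgeR was 0.0502 to 0.0663 without vehicle C3 or C5 or E4 C20 or C39. The call was also lost in 6 of 11 other settings, up to an adjusted p of 0.379: without the filter on low counts, in each number series, without vehicle C5 and tamoxifen C35, with all 24 libraries and with both groups alone. With E2 it was at 1.85, 1.97 and 2.18 CPM and with tamoxifen at 1.36, 1.57 and 2.63 CPM. Neither group differed from vehicle past the adjusted p-value, the intervals being −0.45 to 0.11 and −0.65 to 0.03. The log2 fold changes of E4 and tamoxifen against E2 were -0.28 and -0.14, and that of tamoxifen against E4 was 0.14, and none passed by edgeR. Among platelet markers, 2 of 6 tested genes were lower with E4 than with vehicle, where 21.7% of all tested genes passed in either direction. The summed range of the platelet markers was 26.7 to 51.4 CPM with vehicle and 20.7 to 30.4 with E4. Their part in the Alox12 difference was not tested.

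Aloxe3 (ENSMUSG00000020892; chromosome 11, 69125896 to 69149115, plus strand), which acts on hydroperoxides made by other lipoxygenases in epidermis, had group medians of 0.546 to 0.618 CPM. Its lowest library was tamoxifen C35 at 0.186 CPM. Alox8 (ENSMUSG00000020891; chromosome 11, 69183932 to 69197843, minus strand), the mouse 8-lipoxygenase gene, had group medians of 0.138 to 0.212 CPM. It was listed at 0 counts in tamoxifen C35, which allows up to 0.0696 CPM when 3 counts are taken as the limit, for counting error alone. Neither gene passed the adjusted p-value in any comparison, and the depth left room for large differences: the Alox8 interval for E2 against vehicle was −0.76 to 1.44, and that of Aloxe3 was −0.34 to 0.60. Over the 6 comparisons the log2 fold changes ran from -0.0039 to 0.37 for Alox8 and from -0.31 to 0.13 for Aloxe3. The Alox8 value of tamoxifen against E2, 0.03 over all libraries, was 1.85 (standard error 0.60) within the first number series and -2.05 (0.85) within the second, from 0 to 20 counts, and neither passed the adjusted p-value by edgeR. The keratinocyte marker Dsp, also a gene of other cell junctions, was at 17.7 to 129.9 CPM and made up most of that list's sum by group medians. Krt5 and Krt14 were at 0 in every E4 and tamoxifen library, and reached 16.6 and 0.740 CPM with E2. Alox12b and Alox12e, further lipoxygenase genes, did not pass the filter on low counts.

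Other genes of the pathway were described from a fixed list of 40 annotated genes, of which 34 were tested. With E2 against vehicle, 8 rose and 0 fell, with a median log2 fold change of 0.13 over the 34 against 0.01 over all genes, of which 3.88% passed and 2.65% rose. Among the receptors, 3 of 9 rose. Cmklr1, a receptor for chemerin and for the lipid mediator resolvin E1, went from 25.2, 32.8 and 37.0 CPM with vehicle to 63.4, 69.1 and 81.9 CPM with E2. Its log2 fold change was 1.15 (standard error 0.13), and it was the single receptor past the threshold of 1. Ltb4r1, the high-affinity leukotriene B4 receptor, rose by 0.85 and Cysltr1, the first receptor of cysteinyl leukotrienes, by 0.65, the latter with no overlap between the groups. Both are named here after their values were seen, as are Ggt5, Cotl1 and Pla2g4a, and Cmklr1 and Abcc4 with E4.

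Among the genes of leukotriene conversion and export, 4 of 13 rose with E2. Both annotated identifiers of Dpep2, the membrane dipeptidase that converts leukotriene D4 to E4, were past the threshold, at 1.397 and 1.46. Both carry the same symbol and are counted as 2 here, and how reads were split between them is not known, so their values are uncertain. In each number series alone, 2 genes of the list were past the threshold for E2 against vehicle, against 4 in all. Ggt5, which converts leukotriene C4 to D4, went from 8.58, 10.51 and 13.02 CPM with vehicle to 15.6, 17.6 and 24.3 CPM with E2, a log2 fold change of 0.80. Cotl1, whose product binds 5-lipoxygenase, rose by 0.72. Among genes of arachidonate release, 1 of 12 rose, Pla2g2e, a secreted phospholipase, at 1.38 from low levels (0.410 to 1.07 CPM, medians). Pla2g4a, the cytosolic phospholipase A2 that feeds 5-lipoxygenase, had a difference of -0.11.

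**Figure D4:**
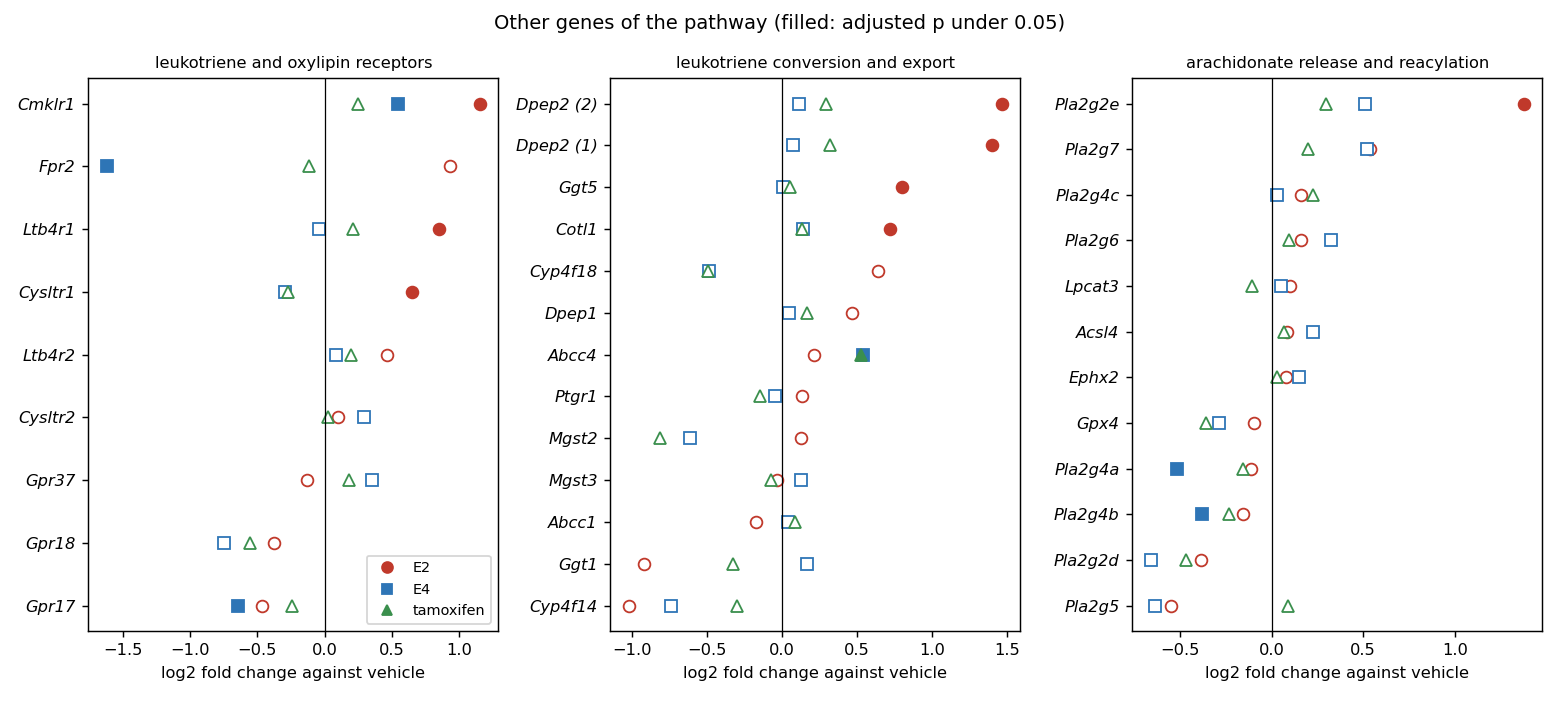
Log2 fold change against vehicle (horizontal axes) of the tested receptor, conversion and export, and arachidonate release genes (vertical axes), with circles for E2, squares for E4 and triangles for tamoxifen, filled at an adjusted p under 0.05. The rows for Dpep2 (1.397 and 1.46), Pla2g2e (1.38) and Cmklr1 (1.15) reach furthest with E2, and Fpr2 (-1.62) is lowest with E4.

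With E4 against vehicle, 2 of the 34 rose and 4 fell, a share near the 21.7% of all genes that passed. Fpr2, a formyl peptide receptor that also binds lipoxin A4, was past the threshold at -1.62. It had 0 to 6 counts in the E4 libraries and 6 to 27 with vehicle, and without vehicle C5 no gene of the list was past the threshold, whereas 2 were without E4 C39. Cmklr1 rose by 0.55 with E4, and Abcc4, an exporter of leukotrienes and cyclic nucleotides, by 0.54. Pla2g4a was lower, at -0.51. With tamoxifen against vehicle, Abcc4 alone passed, at 0.53. Against E2, 10 genes were lower with E4 and 0 higher, whereas 9 were lower and 1 higher with tamoxifen, where 7.95% and 4.48% of all genes were lower. In both, the Dpep2 identifiers (-1.32 and -1.35 with E4, -1.08 and -1.17 with tamoxifen) and Cyp4f18, which inactivates leukotriene B4 in mouse myeloid cells (-1.13 in each), were past the threshold. Fpr2 was past it with E4 (-2.55), and Pla2g2e with tamoxifen (-1.08). For tamoxifen, 4 genes were past the threshold, against 7 without vehicle C5 and tamoxifen C35, 6 without C35, and 2 without E2 C8 or tamoxifen C13. In the second number series 0 genes of the list were past both thresholds by edgeR, for either comparison with E2, against 4 with E4 and 5 with tamoxifen in the first. No gene of the list passed for tamoxifen against E4 by edgeR. These comparisons share the E2 or vehicle libraries, so their lists are not independent.

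Macrophage markers moved with Alox5, Alox5ap and Ltc4s. With E2 against vehicle 9 of 10 macrophage genes were higher at an adjusted p under 0.05 by edgeR, with a median log2 fold change of 0.87. All 10 were lower with E4 than with E2 (median -1.04) and with tamoxifen than with E2 (median -0.98). Of all tested genes, 2.65% were higher in the first comparison, and 7.95% and 4.48% lower in the others. The summed level of the macrophage markers was 630 to 1150 CPM with vehicle, 1078 to 1623 with E2, 457 to 855 with E4 and 586 to 825 with tamoxifen. None of the 10 was at 0 in any group. Mast cell markers, which stand for another source of these enzymes, summed to 73.2 to 190 CPM with vehicle, 88.2 to 137 with E2, 76.4 to 118 with E4 and 92.7 to 130 with tamoxifen, and 1 of 9 was higher with E2 than with vehicle. With E4, 3 of 9 were lower than with E2, where 7.95% of all tested genes were. Against vehicle, where 21.7% of all tested genes passed, 5 were lower and 1 higher with E4. The higher gene was Kit, the stem cell factor receptor (medians of 23.7 CPM with vehicle and 40.7 CPM with E4), whereas the mast cell protease genes Cpa3 (15.5 and 8.90 CPM) and Cma1 (16.2 and 11.3 CPM) were lower, so the summed range does not show their difference.

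**Figure D5:**
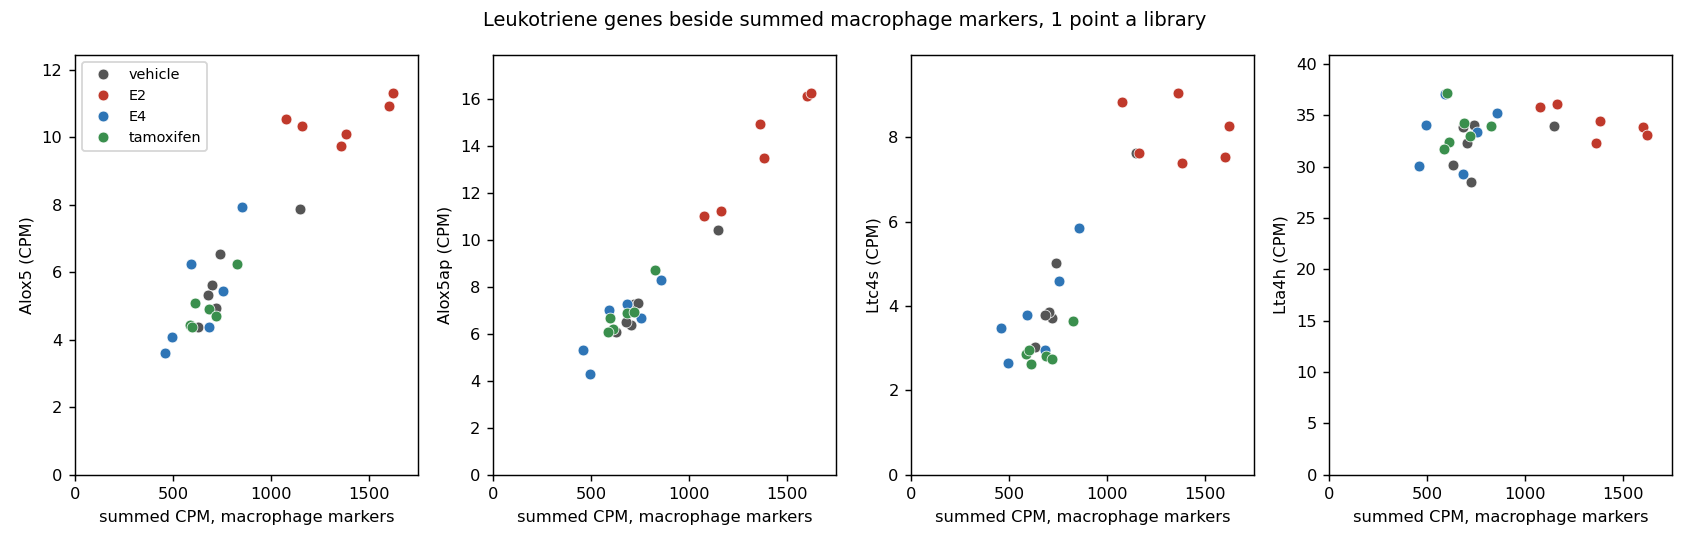
Alox5, Alox5ap, Ltc4s and Lta4h in CPM (vertical axes, linear from 0) against the summed CPM of 10 macrophage markers (horizontal axes), with 1 point a library and colors for the 4 groups. Alox5, Alox5ap and Ltc4s increase with the sum, from about 457 CPM in the lowest E4 library to 1623 in the highest E2 library, and Lta4h does not.

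Relative to the macrophage markers, no difference between groups passed for Alox5 and Alox5ap. Alox5 had a median of 7.40 CPM per 1000 CPM of macrophage markers with vehicle, 7.22 with E2, 8.05 with E4 and 7.44 with tamoxifen. The values for Alox5ap were 9.63, 10.03, 10.1 and 10.3. The difference in mean log2 ratio between E2 and vehicle was 0.04 (standard error 0.11) for Alox5 and 0.08 (0.04) for Alox5ap, with adjusted p of 0.834 and 0.149 by a two-sided exact permutation test over 24 such comparisons, added after the values were seen. The difference of Alox5ap furthest from 0 was that of tamoxifen against vehicle, at 0.11 (standard error 0.04), with an adjusted p of 0.0594 in the same exact permutation test. Ltc4s had medians of 5.52, 5.95 and 6.26 with vehicle, E2 and E4, and of 4.34 with tamoxifen. Its mean log2 ratio with tamoxifen was lower than with vehicle by -0.38, than with E2 by -0.45 and than with E4 by -0.45, with adjusted p of 0.039, 0.0416 and 0.0433 in the same exact permutation test. Without vehicle C5 and tamoxifen C35 these adjusted p-values were 0.0952, 0.0831 and 0.0831 by that exact permutation test. Among the 24 comparisons were those of Lta4h, where the marker sum mainly sets the ratio. Their small p-values lower the adjusted values of the rest, so the Ltc4s differences are not firm. Lta4h itself did not pass in any comparison, and its ratio falls where the marker sum rises. The ratio was lower with E2 than with vehicle by -0.75, and higher than with E2 by 1.07 with E4 and 0.999 with tamoxifen. These differences restate those of the marker sum under a level gene, so no p-value is given for them.

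Over the 24 libraries, Alox5 correlated with Alox5ap at r = 0.92 and with Ltc4s at r = 0.94 (log2 CPM), and at 0.72 and 0.82 after removal of group means. The genes most like Alox5 among 19522 compared were C1qa (r = 0.957), Lyve1, C1qc, Fcgr3 and C1qb, and those most like Alox5ap were Cfp (r = 0.971), C1qb, Clec4a3, Gm36161 and Nfam1. C1qa, C1qb and C1qc encode complement C1q, a product of macrophages, and Lyve1 marks resident macrophages of the vessel wall as well as lymphatic endothelium. For Ltc4s they were Emilin2 (r = 0.939), Gm26542, Fcnaos, Lyve1 and Fcna. Gm26542 lies on the opposite strand and overlaps 268 exonic bases of Ltc4s, and Gm19719 overlaps 189 of Alox5ap. As the strand setting of the counting is not stated, their reads cannot be told apart with certainty. For Alox15 they were Gm11739 (r = 0.838), Gm25994, Zfp58, Zfp511 and Acrbp. The search covered genes of at least 1 CPM on average, which leaves out the eosinophil markers. All of these values are descriptions over libraries that differ in depth and group.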

How the data were processed

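Total RNA of uninjured carotid arteries was sequenced after TruSeq Stranded mRNA preparation. Per the submitters' processing notes, reads were processed with bcl2fastq 2.17, Trim Galore, Bowtie2 and featureCounts on mm10 (GRCm38), with options and strand setting not given in the sources used here. The authors deposited estimated counts per gene without normalization, 1 table per library, and 8.87% to 9.8% of the values carried decimals and were rounded to whole numbers. Names follow GENCODE M21, which held 55240 of 55421 identifiers. Tests were quasi-likelihood F-tests in edgeR 4.0.16 (R 4.3.3), after TMM scaling and edgeR's default removal of low counts, with p-values corrected by Benjamini-Hochberg. E2, E4 and vehicle entered a fit of 18 libraries (24669 genes) and tamoxifen comparisons a fit of 24 (25056 genes), without covariates. A gene was called regulated where its adjusted p was below 0.05 and its log2 fold change above 1 in size. Intervals cover 95%. On simulated data for the E2 against vehicle fit, 100% of 200 changed genes were recovered with 0 false calls. All planted changes were larger than the threshold of 1, in genes of at least 1 CPM that shared the same spread. Recovery of smaller changes, such as those of the members with E2, or of genes with lower expression was therefore not tested. The members and gene lists were chosen with earlier results of these data known. The rule for names took all members, and pathway genes past both thresholds or otherwise the 2 largest at an adjusted p under 0.05, and pathway genes outside it are stated as such. Likeness used genes of at least 1 CPM on average. Depth sets the precision: counting limits cover counting error alone, as reads carried no molecular identifiers. Alternatives covered DESeq2 1.42.0, scaling, filters, thresholds, libraries in the fit, the number series and single libraries. Exact permutation tests and figures were made in Python 3.11.15 with scipy 1.17.1.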

Additional observations from a re-analysis of the deposited data

Results flagged for a closer look

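A library was singled out when its gap to the nearest of the other 5 exceeded Dixon's critical value as a share of its group's range, a limit that chance passes in about 1 of 20 groups. This occurred in 5 of 32 groups of members, where 1.6 would be reached by chance, and in 9 of 60 groups of marker lists, where 3 would. E2 C6 was apart in Alox15 (3.77 CPM, next 0.874) and in eosinophil markers (2.31 CPM, next 1.37). Vehicle C5 was apart in Alox5ap (10.4 CPM, next 7.31), and in macrophage (1150 CPM), large peritoneal macrophage (579 CPM) and platelet markers (51.4 CPM). Tamoxifen C35 was apart in Alox5ap (8.72 CPM, next 6.92) and Ltc4s (3.64 CPM, next 2.96), and in smooth muscle (8339 CPM), keratinocyte (135 CPM) and, at the low end, sympathetic ganglion markers (199 CPM). Vehicle C2 was apart in Alox8 (0.300 CPM, 16 counts), vehicle C3 in eosinophil markers (2.99 CPM) and E2 C9 in T cell markers (374 CPM). The part of these libraries' cell content in the members' values was not tested.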

How the results depend on the processing

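No paired analysis was possible because no replicate number is shared between groups. Over 484 values from settings other than leaving out a library, 442 kept their direction and side of the thresholds, 13 lost and 5 gained a call and 24 turned in direction. Over 1008 values with a library left out these numbers were 954, 17, 6 and 31. Both sets of values include those of Alox15. Number of members past both thresholds, Alox15 included: for E2 against vehicle it was 0, and 3 without the fold-change threshold, 1 in the second number series, 2 without vehicle C5 and tamoxifen C35, and 0 to 2 with single libraries left out. For E4 against vehicle it was 1, and 2 without the fold-change threshold. It was 0 with at least 10 counts in every library (Alox15 is then not tested) and 0 in each number series. The 1 gene was Alox15, which was chosen by this same comparison, so its call is not a test. Of the other 7 genes 0 were past both thresholds, where 2.50% of all genes were. For E4 against E2 it was 3, and 0 in the second series, and 0 to 4 with single libraries left out. Without Alox15, which shares the E4 libraries by which it was chosen, 2 of the other 7 genes were past both thresholds. This was 0 to 3 with single libraries left out, where 2.26% of all genes were past both in the main fit. For tamoxifen against E2 it was 3, and 1 in the second series. The series hold fewer libraries, and whether they differ otherwise was not tested.

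The following differences turned in direction, and the cause was not tested. With E4 against vehicle, upper-quartile scaling gave -0.024 for Aloxe3 and -0.026 for Lta4h, the second series gave 0.071 for Alox5, -0.081 for Aloxe3, 0.081 for Alox5ap, 0.30 for Ltc4s and -0.0016 for Lta4h, and leaving out vehicle C5 and tamoxifen C35 gave 0.00072 for Ltc4s. In the first series, E2 against vehicle gave -0.90 for Alox8 and -0.19 for Aloxe3, E4 against E2 gave 0.34 for Aloxe3 and 0.018 for Lta4h, tamoxifen gave 0.11 against vehicle and 0.30 against E2 for Aloxe3, and tamoxifen against E4 gave 0.71 for Alox8 and -0.041 for Lta4h. In the second, E4 against E2 gave -0.57 for Alox8, tamoxifen against vehicle gave -0.88 for Alox8 and 0.22 for Alox5ap, and tamoxifen against E2 gave 0.15 for Alox15 and -2.05 for Alox8. Alox8 was at -0.016 for tamoxifen against E2 with the series as a covariate. For tamoxifen against E4 it was at 0.24 without vehicle C5 and tamoxifen C35 and at 0.0095 with 2 groups alone.

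With single libraries left out, directions turned for these values. For E2 against vehicle, Alox8 ranged from -0.11 to 0.63 and Aloxe3 from -0.0031 to 0.25. For E4 against vehicle, Aloxe3 ranged from -0.098 to 0.17 and Ltc4s from -0.36 to 0.00072, the last without vehicle C5. For E4 against E2, Alox8 ranged from -0.30 to 0.48 and Aloxe3 from -0.23 to 0.051. For tamoxifen, Alox5ap ranged from -0.15 to 0.044 against vehicle. Against E2, Alox15 ranged from -1.23 (without tamoxifen C12) to 0.29 (without E2 C6) and Alox8 from -0.22 to 0.48. Against E4, Alox5 ranged from -0.18 to 0.058, Alox8 from -0.26 to 0.33, Alox5ap from -0.0026 to 0.18 and Lta4h from -0.011 to 0.057.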
